A study of Homo sapiens with 16 samples.

Results

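Primary BJ fibroblasts, human foreskin-derived fibroblasts that carry no introduced gene, were compared after growth at 3% oxygen and at atmospheric oxygen. The comparison rests on 4 of the 16 RNA-seq libraries of the series, chosen by their labels: 2 from plates kept at 3% oxygen and 2 from plates kept at atmospheric oxygen. The other 12 libraries come from 3 further stages of the same model at the same pair of oxygen levels: immortalized cells (BJ hTERT+, carrying the catalytic subunit of telomerase), transformed cells (BJ hTERT+ SV40+, which also carry the SV40 Large-T oncogene) and metastasizing cells (BJ hTERT+ SV40+ Ras-G12V, which carry mutant RAS in addition). All were grown in serum-containing medium for 6 passages at their oxygen level and harvested before the plates were full. The labels call the 2 plates of each condition duplicates kept in parallel, and the comparison therefore describes 1 line of primary cells in long-term culture. The p-values measure the spread between plates, pooled for each gene over the 8 groups of all 16 libraries. Spread between plates of the other stages thus enters the p-values of the primary comparison.

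When oxygen is plentiful, prolyl hydroxylases mark the alpha subunits of the hypoxia-inducible factors (HIF) for destruction through the VHL protein. When it is scarce the alpha subunits persist, pair with ARNT and bind short hypoxia response elements with the core ACGTG near genes of glycolysis, pyruvate handling, vessel growth and collagen maturation. Fibroblasts secrete and remodel the collagenous matrix, can take on a contractile phenotype with stress fibres of smooth muscle actin, and stop dividing after a limited number of population doublings unless telomerase is supplied.

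Between 11749 and 11906 protein-coding genes were above 1 TPM (a transcript's share of all transcripts after its length is taken into account, with 1000000 as the total) in each of the 4 libraries, and the 10 most abundant genes took 5.53% to 6.59% of the total. Duplicate plates differed by more than 2-fold in 385 of 11797 genes (3.26%) at 3% oxygen and in 384 of 11907 genes (3.23%) at atmospheric oxygen, with Spearman correlations across genes of 0.981 in both. One library at 3% oxygen (plate b) held 4.33% of its TPM in mitochondrially encoded genes, against 2.58% to 2.61% in the other 3 libraries. All 15 fibroblast markers exceeded 1 TPM in every library, with a summed level of 19489 to 20560 TPM at 3% and 24217 to 24715 TPM at atmospheric oxygen. Of 10 keratinocyte or epithelial markers 3 were listed at 0 in all 4 libraries (KRT5, KRT1 and DSG3) and 2 were over 1 TPM in all 4 (KRT19 and KRT10), with a summed level of 154 to 203 TPM at 3% and 176 to 219 TPM at atmospheric oxygen, most of it from KRT19. Of 7 melanocyte markers 4 were listed at 0 (TYR, DCT, TYRP1 and SOX10) and MITF was over 1 TPM in all 4, with sums of 13.4 to 15.2 TPM and 10.9 to 12.3 TPM. Of 9 blood cell markers 3 were listed at 0 (TYROBP, SPI1 and CD3E), none was over 1 TPM in all 4, and the sums were 3.85 to 4.82 TPM and 2.96 to 3.90 TPM. TERT, the gene of the catalytic telomerase subunit, was listed at 0 in both atmospheric libraries and at 0.0370 and 0.543 TPM at 3% oxygen.

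After transcript TPM were added up per gene, 12184 protein-coding genes whose mean reached 1 TPM at one or both oxygen levels were tested on the log2(TPM + 0.5) scale. With limma and Benjamini-Hochberg adjustment, 646 of them (5.3%) passed an adjusted p of 0.01 with a change beyond 2-fold. Such genes are called hypoxia-induced differentially expressed genes (hDEGs) here. Of these, 339 rose at 3% oxygen (2.78% of the genes tested) and 307 fell (2.52%). Both libraries at 3% oxygen lay above both atmospheric libraries in 4970 tested genes (40.8%) and below both in 3282 (26.9%), and all 646 hDEGs were among these. An unadjusted p under 0.05 was reached by 4755 genes. The pseudocount understates the log2 fold change (log2FC) of genes with low TPM, and 124 hDEGs had a mean below 5 TPM in both groups. In bulk RNA, fewer cells of a type and less RNA per cell cannot be told apart.

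The median log2FC of all tested genes was 0.08, and scaling the libraries by the median ratio moved it to -0.04. That shift changed the split of the calls from 339 higher and 307 lower to 254 higher and 395 lower, so the medians of gene groups below are also given relative to the median of all genes. The change moved with the base composition of the transcripts. With genes divided by GC content into 5 equal bins, the median log2FC fell from 0.24 in the lowest bin to -0.25 in the highest, and the bin richest in GC held 22 higher and 108 lower hDEGs, against 91 and 33 in the poorest. In that GC-rich bin the duplicate plates also differed from each other, plate b minus plate a having a median of -0.29 at 3% and 0.25 at atmospheric oxygen. After this dependence was removed library by library, an adjustment chosen after seeing the data, 246 genes were higher and 348 lower, and 478 of the 646 hDEGs remained called.

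**Figure D1:**
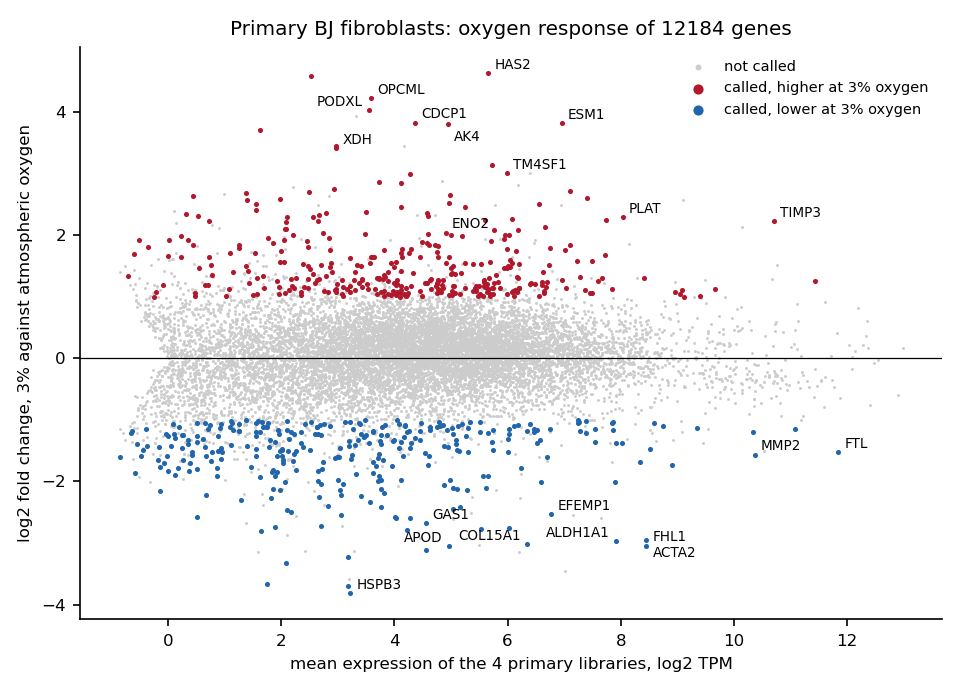
Each of the 12184 tested protein-coding genes is a point, with its mean level over the 4 primary libraries on the x axis (log2 TPM) and its log2 fold change at 3% against atmospheric oxygen on the y axis. The hDEGs are coloured and a selection of them is named, which leaves out some of the largest changes. The 339 rises and 307 falls extend over the whole range of levels, and the named extremes reach 4.64 (HAS2) and -3.81 (HSPB3).

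The 12 largest rises among hDEGs of at least 5 TPM included AK4 (ENSG00000162433, chromosome 1 of GRCh37 from 65613232 to 65697828, plus strand), a mitochondrial adenylate kinase. It measured 57.2 and 58.1 TPM in the plates at 3% oxygen and 3.97 and 3.37 TPM at atmospheric oxygen. Plates of one condition thus lay within a narrow band far from the other, and the log2FC was 3.81 (standard error 0.13, adjusted p = 8.5e-08 in limma, as for every adjusted p below). AK4 has closely similar pseudogene copies with which reads may be shared, and one of them, AK4P1, rose as well (15.6 and 13.0 TPM at 3% and 0.484 and 1.41 TPM at atmospheric oxygen).

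ESM1 (ENSG00000164283, chromosome 5 from 54273695 to 54318499, minus strand) encodes endocan, a proteoglycan secreted by endothelial cells in particular. It rose from 14.4 and 17.6 TPM to 253 and 212 TPM (log2FC 3.82, standard error 0.41, adjusted p = 0.000134). The summed level of the 8 matched endothelial markers was also higher, 13.1 and 14.4 TPM at 3% against 2.65 and 5.08 TPM at atmospheric oxygen. Of these 8, TEK rose from 1.48 and 1.89 to 10.1 and 10.3 TPM, EMCN measured 2.44 and 3.06 against 0.863 and 2.79 TPM and was not called, and the other 6 stayed under 1 TPM in all 4 libraries, among them ERG, listed at 0 in all 4, and CDH5, at most 0.0483 TPM. The median log2FC of the 2 tested markers was 1.45, and their part in the ESM1 result was not tested.

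CDCP1 (chromosome 3 from 45123769 to 45187914), a transmembrane glycoprotein phosphorylated by SRC-family kinases, measured 45.2 and 32.2 TPM at 3% and 2.03 and 2.42 TPM at atmospheric oxygen (log2FC 3.83). The adhesion molecule OPCML, of the IgLON family, rose from 0.506 and 1.08 to 21.5 and 25.1 TPM (log2FC 4.23). PODXL, the sialomucin podocalyxin, rose from 0.658 and 1.15 to 26.8 and 18.1 TPM (log2FC 4.03). In each of these 3 surface proteins the lower of the plates at 3% oxygen was more than 10 times the higher of the atmospheric plates.

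TFPI2, an inhibitor of serine proteases deposited in the matrix, rose from 8.6 and 12 to 116 and 75.5 TPM, and TM4SF1, a small membrane protein with 4 transmembrane spans, from 12.2 and 14.9 to 119 and 107 TPM. XDH, which oxidises hypoxanthine and xanthine to uric acid, rose from 0.648 and 1.27 to 14.2 and 15.3 TPM, and FRMD3, a FERM domain protein, from 0.934 and 0.863 to 14.9 and 14.7 TPM. A 475-base transcript without a defined coding sequence made up 45.0% of the XDH level at 3% oxygen and 17.5% at atmospheric oxygen. The hyaluronan synthase HAS2 had the largest log2FC of all (4.64). The WASF2 level came from 1 matched transcript of 1083 bases, and 98.4% of the FAM217A level at 3% oxygen came from 1 of 272 bases. Both were listed at 0 at atmospheric oxygen, WASF2 measured 5.16 and 7.12 TPM at 3% oxygen, and no fold is given for either. No alternative fit varied the matching of transcripts to genes, so the fits cannot show whether these gene totals are complete. Of the 12 rises, 11 were called under every alternative fit. The exception, FAM217A, was lost with any single primary library left out, with adjusted p values reaching 0.0293 over the alternatives.

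The 12 largest falls by the same rule included FHL1 (ENSG00000022267, chromosome X from 135228861 to 135293518, plus strand), a LIM-domain protein of muscle and stress fibres, which measured 67.6 and 83.6 TPM at 3% oxygen and 634 and 612 TPM at atmospheric oxygen. It fell with a log2FC of -3.04 (standard error 0.14, adjusted p = 6.53e-07), the smallest adjusted p among the falls named here. Its most abundant transcript took 52.8% of the gene's TPM at atmospheric and 33.1% at 3% oxygen.

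ALDH1A1 (chromosome 9 from 75515587 to 75695358), a retinaldehyde dehydrogenase, fell from 468 and 392 to 50.8 and 57.8 TPM (log2FC -2.97). COL15A1 (chromosome 9 from 101705461 to 101833074), the chain of a basement membrane-associated collagen, fell from 165 and 125 to 19.4 and 15.4 TPM (log2FC -3.02). The lipocalin APOD, a gene known to rise in growth-arrested fibroblasts, fell from 65.8 and 46.2 to 6.17 and 6.30 TPM, and the imprinted gene MEST from 48.3 and 36.9 to 4.07 and 4.79 TPM. Groups without overlap were a condition of the rule that picked these 4 genes.

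Further falls were seen in RCAN2, an inhibitor of calcineurin (6.31 and 5.39 to 0.490 and 0.323 TPM), the keratin-associated gene KRTAP1-5 (14.6 and 19 to 1.86 and 0.923 TPM) and the zinc finger gene ZNF705A (8.81 and 7.19 to 0.921 and 0 TPM). KRTAP1-5 and ZNF705A belong to families of similar copies, so their reads may be split. The ZNF705A call was lost without plate b at 3% oxygen and without either atmospheric plate. TNFSF18, the ligand of the receptor GITR, was listed at 0 in both plates at 3% oxygen and measured 10.1 and 3.33 TPM at atmospheric oxygen. The small heat shock gene HSPB3 and the metalloproteinase MMP11 had the lowest log2FC (-3.81 and -3.70). The atmospheric plates of MMP11 measured 25.2 and 9.25 TPM. Its call was lost without plate b at 3% oxygen and without plate a at atmospheric oxygen, with adjusted p values up to 0.0250 over the alternatives. Of the 12 falls, 6 were called under every alternative fit: HSPB3, MEST, APOD, FHL1, COL15A1 and ALDH1A1.

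Of 10 genes for HIF subunits, their hydroxylases and VHL, 8 were tested and 1 was an hDEG, against 5.3% of all tested genes. This was ARNT2, a partner subunit for HIF alpha proteins best known from neurons, which fell from 20.2 and 22.2 to 5.25 and 4.59 TPM (log2FC -2.0, standard error 0.17, adjusted p = 3.68e-05). The general partner ARNT measured 32.1 and 36.4 TPM at 3% and 26.9 and 30.2 TPM at atmospheric oxygen (log2FC 0.26, adjusted p = 0.315). EPAS1, which encodes HIF2 alpha, measured 155 and 136 against 152 and 156 TPM (log2FC -0.08, adjusted p = 0.668), and VHL 16.8 and 16.1 against 16.7 and 18 TPM. EPAS1 groups overlapped, and ARNT groups did not.

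EGLN1, the main prolyl hydroxylase and itself a HIF target, measured 31.4 and 37.6 TPM at 3% and 19.4 and 18.7 TPM at atmospheric oxygen (log2FC 0.83, adjusted p = 0.00216), a difference under 2-fold. HIF1AN, the asparagine hydroxylase that limits HIF activity, measured 29.8 and 29.0 against 19.4 and 23.2 TPM (log2FC 0.46, adjusted p = 0.0172). EGLN3 and HIF3A stayed under 1 TPM in all 4 libraries. The total of HIF1A was not called (log2FC 0.17, adjusted p = 0.271), but its transcripts differed between the oxygen levels: a 767-base form with no defined coding sequence was listed at 0 in both atmospheric plates and measured 34.4 and 30.3 TPM at 3% oxygen, while the main coding form took 64.7% of the gene's TPM at atmospheric and 53.1% at 3% oxygen. No test was run on single transcripts.

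Of 40 established HIF targets 39 were tested, of which 11 rose and none fell, against 2.78% higher among all tested genes. Both plates at 3% oxygen were above both atmospheric plates in 31 of the 39 and below in 4, against 40.8% and 26.9% of all genes. The median log2FC of the list was 0.84 (0.76 above the median of all genes) and stayed between 0.72 and 0.78 under median-ratio scaling, quantile normalization and GC adjustment. Without plate a at 3% oxygen 7 members were called.

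ANGPTL4 (chromosome 19 from 8428173 to 8439254), a secreted inhibitor of lipoprotein lipase, had the largest log2FC of the list, with 34.9 and 13.3 TPM at 3% and 2.75 and 2.34 TPM at atmospheric oxygen (log2FC 2.86, standard error 0.54, adjusted p = 0.00350, up to 0.0313 over the alternatives). Its call was lost without plate a at 3% oxygen and without either atmospheric plate. BNIP3, a mitochondrial receptor for mitophagy, rose from 59.9 and 59.3 to 221 and 208 TPM (log2FC 1.84). ERO1A, which oxidises disulfide bonds in the endoplasmic reticulum, rose from 29.7 and 32.3 to 85.9 and 74.6 TPM (log2FC 1.35), FAM162A from 29.7 and 23.5 to 57.6 and 55.9 TPM (1.09) and PPFIA4 from 0.503 and 0.582 to 3.12 and 2.40 TPM (1.64). The targets P4HA2 and LDHA passed the adjusted p without reaching 2-fold, with log2FC of 0.82 and 0.92. VEGFA, the vessel growth factor, measured 46.5 and 36.3 against 32.1 and 27.4 TPM (log2FC 0.46, adjusted p = 0.159) and was not an hDEG.

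The promoters of these targets were then searched for the core of the hypoxia response element. Windows of 250 bases upstream of the main transcript's start were read for ACGTG on both strands, a palindromic CACGTG being counted on each. The core was present in 8 of the 11 targets that rose (72.7%) and in 22 of the 39 tested (56.4%), against 2755 of all 12184 windows (22.6%), 73 of the 339 higher hDEGs (21.5%) and 53 of the 307 lower hDEGs (17.3%). The looser cores ACGTG or GCGTG were found in 10 of the 11 and in 55.4% of all windows. The list holds genes already established as HIF targets, so its share is not independent evidence that these matches act in the cells. Among all higher hDEGs the share (21.5%) was close to that of all windows (22.6%). The match nearest to the start site is shown for each of the 8 genes. Each stretch of 25 bases from GRCh37 is written 5′ to 3′ on the gene's strand, with the core in capitals (CACGT where it lies on the opposite strand).
HK2, chr2:75061196-75061220, plus strand, core 48 to 44 bases upstream of the start: tgggcgtgcgCACGTcactgatccg
LOX, chr5:121413982-121414006, minus strand, 42 to 38 bases upstream: aactttgcaaACGTGccagaaagtt
FAM162A, chr3:122102935-122102959, plus strand, 78 to 74 bases upstream: gcgcgtggcgCACGTcctacacgcc
ERO1A, chr14:53162376-53162400, minus strand, 114 to 110 bases upstream: ggcgccgcggCACGTccacaggctg
PPFIA4, chr1:202995491-202995515, plus strand, 125 to 121 bases upstream: cgctctcgtcACGTGcccggacccg
BNIP3, chr10:133795546-133795570, minus strand, 133 to 129 bases upstream: cacgcgccgcACGTGccacacgcac
PLOD2, chr3:145879103-145879127, minus strand, 146 to 142 bases upstream: aacagtccagACGTGgggcccagga
ANGPTL4, chr19:8428795-8428819, plus strand, 234 to 230 bases upstream: aaagaagagtCACGTctcccacggt
LOX held 4 such matches in its window, PLOD2, BNIP3, HK2 and PPFIA4 held 2 each, and PDK1, PGK1 and PFKFB4 held none. In BNIP3 and PPFIA4 the pair is 1 palindrome read on both strands. A match is a stretch of letters and not a measured binding site. Only the window of each gene's main transcript was read. That of PGK1 ended at base 77320712 of chromosome X, inside the annotated span of the gene (77166236 to 77384792). Windows at other start sites were not searched, so a count of none holds for the window read and not for every promoter of the gene.

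Of 24 genes for glucose transport and glycolysis, all tested, 8 rose and none fell, against 2.78% and 2.52% of all genes, and the median log2FC was 0.72 (0.65 above the median of all genes). ENO2, the neuronal form of enolase, had the tightest values, 50.3 and 46.6 TPM at 3% and 11.3 and 11.5 TPM at atmospheric oxygen (log2FC 2.04, standard error 0.09, adjusted p = 6.53e-07). ALDOC, a fructose-bisphosphate aldolase, rose from 8.17 and 6.72 to 38.0 and 42.6 TPM (log2FC 2.37) and PGK1, phosphoglycerate kinase, from 66.7 and 84.0 to 243 and 208 TPM (log2FC 1.58). PFKFB4, which makes the activator of phosphofructokinase, rose from 7.85 and 8.39 to 23.1 and 24 TPM (log2FC 1.48). GAPDH, often used as a reference gene, measured 6652 and 5931 TPM at 3% and 4066 and 4173 TPM at atmospheric oxygen (log2FC 0.61, adjusted p = 0.00858). With median-ratio scaling 6 of the glycolytic genes were called, and with quantile normalization 9.

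Among kinases that control pyruvate dehydrogenase, 1 rose and 1 fell. PDK1, a kinase that inactivates pyruvate dehydrogenase, rose (log2FC 2.02), while PDK2, another form of that kinase, fell from 39.3 and 35 to 16.6 and 17.0 TPM (log2FC -1.12, adjusted p = 0.000924). A shorter PDK1 transcript took 5.63% of the gene's TPM at atmospheric and 17.0% at 3% oxygen. PDK1 and PDK2 were the hDEGs among 28 tested genes of pyruvate dehydrogenase and the citric acid cycle, against 5.3% of all genes, and CS, citrate synthase, measured 178 and 187 against 134 and 141 TPM (adjusted p = 0.0240). The PDK2 call was lost without plate a at atmospheric oxygen.

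No respiratory chain gene was called, although the nuclear and the mitochondrial genome's genes leaned to different sides. Among 79 tested nuclear-encoded subunits of the chain and ATP synthase, both plates at 3% oxygen lay below both atmospheric plates in 48 and above in 13, against 26.9% and 40.8% of all genes. Their median log2FC was -0.26 (-0.34 relative to all genes) and lay between -0.38 and -0.29 under the 3 other scalings. The 13 mitochondrially encoded genes had a median of 0.46, with 7 above and none below. That median goes with plate b at 3% oxygen, where MT-CO2 measured 7433 TPM against 4378 TPM in plate a and 4435 and 4485 TPM at atmospheric oxygen. The same plate had a level of 3119 TPM for the small complex III subunit UQCRQ, against 716 TPM in its duplicate and 363 and 322 TPM at atmospheric oxygen. ATP5MF, the most abundant of the other nuclear subunits, measured 703 and 745 against 818 and 671 TPM.

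**Figure D2:**
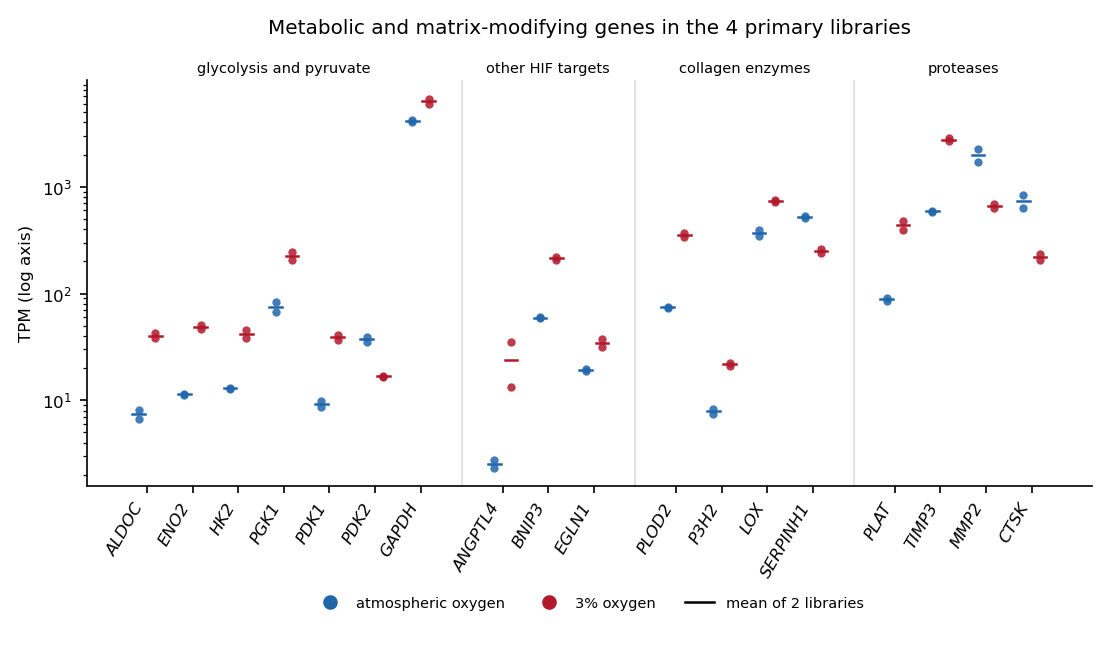
TPM of metabolic and matrix-modifying genes (log axis) in each of the 4 primary libraries, with red points at 3% oxygen, blue points at atmospheric oxygen and a bar at the mean of 2 libraries. Most pairs of plates nearly coincide, ENO2 for example at 50.3 and 46.6 TPM against 11.3 and 11.5 TPM, whereas the ANGPTL4 plates at 3% oxygen lie apart at 34.9 and 13.3 TPM.

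Of 22 tested collagen chain genes none rose and 2 fell, against 2.78% and 2.52% of all genes. These were COL15A1 and COL8A2, a short-chain collagen that went from 13.1 and 13.5 to 6.68 and 4.92 TPM (log2FC -1.15). The chains of type I collagen, the main product of fibroblasts, were not called: COL1A1 measured 2949 and 1879 against 2659 and 3902 TPM (adjusted p = 0.469) and COL1A2 2749.9 and 3061 against 5109.9 and 4065 TPM (adjusted p = 0.288). COL1A1 groups overlapped. The COL8A2 call was lost without plate b at 3% oxygen and without plate a at atmospheric oxygen.

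Of 22 collagen-modifying enzymes and chaperones, 3 rose and 1 fell, against 2.78% and 2.52% of all genes. PLOD2, the lysyl hydroxylase of collagen telopeptides, rose most (log2FC 2.24), and 2 of its transcripts that were listed at 0 at atmospheric oxygen were measured at 18.3 and 27.5 TPM and at 4.37 and 8.18 TPM in the plates at 3% oxygen. P3H2, a prolyl 3-hydroxylase, rose from 7.51 and 8.29 to 22.6 and 20.8 TPM (log2FC 1.4). LOX, the lysyl oxidase that cross-links collagen and elastin, sat at the threshold with 722 and 758 against 347 and 394 TPM (log2FC 1.0, standard error 0.14), and its call was lost under median-ratio scaling, quantile normalization, GC adjustment and a pseudocount of 1 TPM, and without plate b at 3% or plate a at atmospheric oxygen. SERPINH1, the collagen chaperone HSP47, fell from 527 and 512 to 262 and 238 TPM (log2FC -1.06, adjusted p = 0.000132), a call lost with quantile normalization, with GC adjustment and without plate b at 3% oxygen. The other members P4HB, a protein disulfide isomerase, and LOXL2, a lysyl oxidase, measured 1379 and 1601 against 1053 and 900.2 TPM and 1164 and 936 against 605 and 693 TPM, under 2-fold.

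Of 31 tested non-collagen matrix genes 4 fell and none rose, against 2.52% and 2.78% of all genes. The median log2FC was -0.36 (-0.44 relative to all genes), and 17 lay lower and 3 higher without overlap, against 26.9% and 40.8% of all genes. EFEMP1 (fibulin-3), a glycoprotein of elastic fibres, fell from 213 and 161 to 29.9 and 33.5 TPM (log2FC -2.53, standard error 0.18, adjusted p = 1.62e-05). MFAP2, a microfibril component, fell from 94.8 and 95.9 to 32.0 and 33.5 TPM, and the collagen-binding FMOD and COMP from 33.6 and 29.1 to 11.9 and 12.5 TPM and from 12.9 and 13.7 to 5.08 and 4.81 TPM. Fibronectin (FN1) and osteonectin (SPARC), the most abundant members, measured 3137 and 3688 against 3470.0 and 3151 TPM and 3829 and 4362 against 5005 and 4283 TPM, with overlapping groups. Under median-ratio scaling and under GC adjustment 7 members were called lower, the FMOD call was lost without plate a at atmospheric oxygen, and the COMP call was lost under GC adjustment and with a pseudocount of 0.1 TPM.

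Among 29 matrix proteases and inhibitors 4 rose and 3 fell, against 2.78% and 2.52% of all genes. PLAT, tissue plasminogen activator, rose from 84.6 and 91.1 to 477 and 395 TPM (log2FC 2.30, standard error 0.33, adjusted p = 0.000804). TIMP3 (chromosome 22 from 33197691 to 33259028), a matrix-bound inhibitor of metalloproteinases, rose from 581 and 591 to 2828 and 2673 TPM (log2FC 2.23, adjusted p = 0.000690). The urokinase receptor PLAUR also rose (log2FC 1.33), as did the membrane-type metalloproteinase MMP16, from 3.08 and 3.24 to 6.68 and 7.28 TPM, whose call was lost in 11 of 20 alternatives.

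The falls in this group were in matrix-degrading enzymes. The gelatinase MMP2 fell from 2245 and 1718 to 634 and 695 TPM (log2FC -1.56, adjusted p = 5.63e-05), and CTSK, the collagen-degrading cathepsin K, from 836 and 637 to 236 and 206 TPM (log2FC -1.73), a call lost in 10 of 20 alternatives. TIMP1 measured 1360.2 and 1127 against 2642 and 2128 TPM, under 2-fold. Leaving out plate b at 3% oxygen or plate a at atmospheric oxygen reduced the group to 3 higher and 1 lower.

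Hyaluronan genes had the largest single rise. HAS2 was the only hDEG of 11 tested members, against 5.3% of all genes. CD44, the hyaluronan receptor, measured 942 and 951 TPM at 3% and 486 and 524 TPM at atmospheric oxygen (log2FC 0.91, adjusted p = 7.02e-05), just under 2-fold. CEMIP, which depolymerises hyaluronan, measured 74.2 and 43.1 against 349.7 and 336 TPM (log2FC -2.59, standard error 0.65, adjusted p = 0.0143), a wide separation that missed the adjusted p.

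Calls among cell cycle genes were all rises, and those among growth-arrest genes were mostly falls. Of 51 proliferation genes, all tested, 12 rose and none fell, against 2.78% and 2.52% of all genes. Both plates at 3% oxygen lay above both atmospheric plates in 46 of them and below in 1, against 40.8% and 26.9% of all genes. The median log2FC was 0.63 (0.55 above all genes) and lay between 0.50 and 0.59 under the other scalings, with 9 to 11 members called. RRM2, a subunit of ribonucleotide reductase, rose from 188 and 207 to 474 and 499.9 TPM (log2FC 1.30, standard error 0.10, adjusted p = 2.36e-05).

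E2F7, an atypical E2F repressor of late cell cycle, rose from 7.15 and 10.3 to 30.5 and 30.8 TPM, and MCM4, a subunit of the replicative helicase, from 46.6 and 29.9 to 106 and 111 TPM. MCM10, BRCA1 and MKI67 rose as well, with log2FC of 1.22, 1.27 and 1.19. KNL1, a kinetochore scaffold, had 129 and 50.4 TPM in its plates at 3% oxygen and 18.1 and 19 TPM at atmospheric oxygen, and its call was lost in 9 of 20 alternatives, among them the fit without plate a at 3% oxygen. The MKI67 call was lost with any single primary library left out, and that of MCM4 with any of them but plate a at atmospheric oxygen. The abundant members CCND1 (cyclin D1) and TYMS (thymidylate synthase) measured 702 and 605 against 326 and 386 TPM and 404 and 429.9 against 298 and 324 TPM, each with an adjusted p under 0.01 and a change under 2-fold.

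Of 18 tested CDK inhibitors and growth-arrest genes, 5 fell and 1 rose, against 2.52% and 2.78% of all genes. GAS1 (chromosome 9 from 89559277 to 89562421), a membrane protein induced on growth arrest, fell from 43.3 and 38.6 to 6.11 and 5.83 TPM (log2FC -2.68, standard error 0.15, adjusted p = 2.35e-06). CDKN2A, the locus of p16 and ARF, fell from 8.30 and 4.89 to 0.461 and 2.05 TPM (log2FC -2.14), and its call was lost without plate a at atmospheric oxygen. CDKN1C, the inhibitor p57, fell from 1.97 and 2.03 to 0.0958 and 0.252 TPM.

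The member that rose, RBL1, encodes the pocket protein p107, which is itself expressed in cycling cells, and went from 8.57 and 9.74 to 22.9 and 27.7 TPM. CDKN1A, the CDK inhibitor p21, measured 253 and 249 against 231 and 266 TPM (log2FC 0.02, adjusted p = 0.970) with overlapping groups.

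Of 27 tested genes of the contractile apparatus 9 fell and none rose, against 2.52% lower among all genes. The median log2FC was -0.45 (-0.52 relative to all genes), and 17 members lay lower and 4 higher without overlap, against 26.9% and 40.8% of all genes. ACTA2 (ENSG00000107796, chromosome 10 from 90694831 to 90751096, minus strand), smooth muscle alpha-actin, measured 61.2 and 99.3 TPM at 3% and 744 and 496 TPM at atmospheric oxygen (log2FC -2.95, standard error 0.38, adjusted p = 0.000396, up to 0.0121 over the alternatives). The plates of each condition differed, but the lower atmospheric plate was about 5 times the higher plate at 3% oxygen.

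LMOD1, a nucleator of actin filaments in smooth muscle, fell from 59.9 and 51.7 to 8.20 and 11.6 TPM (log2FC -2.45), ACTG2, enteric smooth muscle actin, from 13.1 and 11.8 to 4.14 and 3.43 TPM, and TPM2, beta-tropomyosin, from 1655 and 1948 to 883 and 697 TPM. The LMOD1 call was lost without either plate a and the TPM2 call without either plate b. The abundant TAGLN and MYL6 measured 3068 and 2794 against 4087 and 3967 TPM (adjusted p = 0.467) and 5369.6 and 5686 against 6164 and 5549 TPM. With 1 primary library left out, 3 (without plate a at atmospheric oxygen) to 5 members were called lower. The summed level of 8 smooth muscle and pericyte markers was 163 to 183 TPM at 3% and 644 to 877 TPM at atmospheric oxygen, ACTA2 being the largest contributor. The defining markers MYH11 and DES stayed between 0.786 and 1.94 TPM in all 4 libraries, and none of the 8 was listed at 0.

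**Figure D3:**
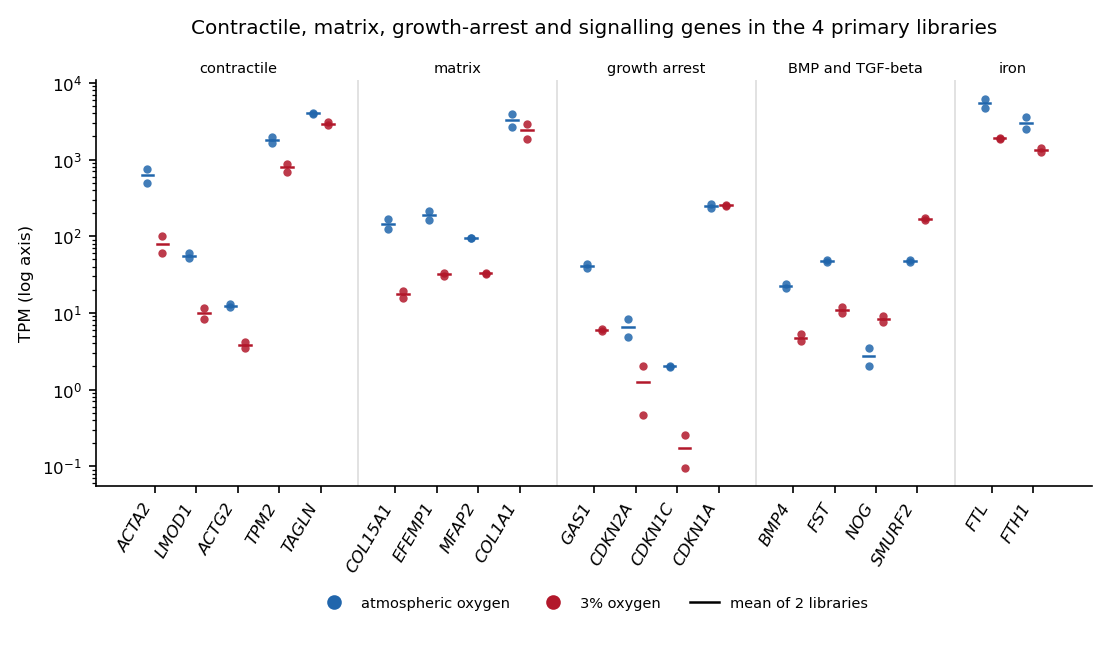
TPM of contractile, matrix, growth-arrest, BMP-pathway and ferritin genes (log axis) in each of the 4 primary libraries, with red points at 3% oxygen, blue points at atmospheric oxygen and a bar at the mean of 2 libraries. ACTA2, COL15A1, GAS1 and FTL lie lower at 3% oxygen without overlap, while CDKN1A at 253 and 249 and 231 and 266 TPM overlaps.

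Of 44 tested genes of TGF-beta and BMP signalling 3 rose and 5 fell, against 2.78% and 2.52% of all genes, with a median log2FC of -0.01. The ligand BMP4 fell from 20.8 and 23.6 to 4.23 and 5.28 TPM (log2FC -2.12, standard error 0.23, adjusted p = 0.000142), whereas BMP6 rose from 0.0633 and 0.0309 to 1.49 and 1.06 TPM (log2FC 1.69). Of the secreted antagonists, NOG (noggin) rose from 2.00 and 3.46 to 9.14 and 7.67 TPM, and FST (follistatin) fell from 49.1 and 45.7 to 12 and 9.99 TPM. Ligands and antagonists thus each held members that moved in opposite directions. The NOG call was lost without either plate at 3% oxygen or plate a at atmospheric oxygen.

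SMURF2, a ubiquitin ligase that removes SMAD proteins and receptors, had the smallest standard error of these, rising from 46.0 and 49.6 to 162 and 173 TPM (log2FC 1.80, standard error 0.10, adjusted p = 1.75e-06). The ligand GDF6 fell from 2.14 and 1.09 to 0.163 and 0.141 TPM, a call lost without either plate at 3% oxygen or plate a at atmospheric oxygen. ID3 and ID2, immediate targets of BMP receptors, measured 347 and 259 against 266 and 339 TPM and 147 and 120.0 against 169 and 181 TPM, and ID3 groups overlapped. Without plate b at 3% oxygen, 2 members were called higher and 2 lower.

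Of 17 tested cytokines and chemokines none rose and 2 fell, against 2.78% and 2.52% of all genes. These were CSF1, the macrophage growth factor, from 24 and 25.8 to 12.2 and 10.5 TPM, and TNFSF4 from 3.19 and 3.62 to 1.54 and 1.18 TPM. The CSF1 call was lost in 9 of 20 alternatives and the TNFSF4 call in 12 of 19. CXCL12 and CCL2, the most abundant chemokines, measured 406 and 325 against 226 and 258 TPM (adjusted p = 0.0800) and 132 and 125 against 306 and 251 TPM (adjusted p = 0.122). Of 19 genes for NF-kB subunits and feedback targets, 2 rose, against 2.78% of all genes: PTGS2, the inducible cyclooxygenase, from 25.0 and 30.6 to 185 and 136 TPM (log2FC 2.50, standard error 0.49, adjusted p = 0.00433), and the apoptosis inhibitor BIRC2 from 76.4 and 85.8 to 176 and 184 TPM. The PTGS2 call was lost with any single primary library left out (adjusted p up to 0.0364), and that of BIRC2 under GC adjustment. RELA measured 67.9 and 57.8 against 53.1 and 56.2 TPM (adjusted p = 0.207).

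Of 24 tested interferon-stimulated genes, both plates at 3% oxygen lay below both atmospheric plates in 16 and above in 1, against 26.9% and 40.8% of all genes, and the median log2FC was -0.74 (-0.82 relative to all genes). The only hDEG (against 5.3% of all genes) was IFITM2, an antiviral membrane protein, from 287 and 232 to 114 and 118 TPM (log2FC -1.15, adjusted p = 0.000184), a call lost without plate a at atmospheric oxygen. Its neighbours IFITM3 and IFITM1, which are similar in sequence, measured 321 and 236 against 701 and 680.2 TPM (adjusted p = 0.0160) and 55.7 and 42.9 against 187 and 131 TPM (adjusted p = 0.0655).

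Of 27 tested angiogenic ligands and receptors 4 rose and 2 fell, against 2.78% and 2.52% of all genes. Besides ANGPTL4, the rises were in SEMA3A, a semaphorin that guides axons and vessels (8.95 and 14.5 to 63.6 and 65.7 TPM, log2FC 2.45), the angiopoietin receptor TEK (1.48 and 1.89 to 10.1 and 10.3 TPM, log2FC 2.29, adjusted p = 2.82e-05) and the hepatocyte growth factor receptor MET (55.1 and 60.8 to 137 and 138 TPM). PDGFRB, the receptor for platelet-derived growth factor and a fibroblast and pericyte marker, fell from 168 and 147 to 50.1 and 52.4 TPM (log2FC -1.60, adjusted p = 6.97e-05), as did ANGPTL2 from 42.8 and 27.3 to 10.1 and 12.8 TPM. The ligand FGF2 measured 118 and 137 against 135 and 138 TPM and the co-receptor NRP1 189.5 and 172 against 135 and 130.3 TPM, neither being called. Without plate a at atmospheric oxygen the count was 2 higher and 1 lower. The SEMA3A call was lost there and without plate b at 3% oxygen, and the ANGPTL2 call in these and without plate a at 3% oxygen.

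Of 37 tested redox genes 3 rose and 3 fell, against 2.78% and 2.52% of all genes, a split that became 2 and 4 under median-ratio scaling and GC adjustment and 2 and 1 with quantile normalization. FTL (chromosome 19 from 49468566 to 49470136), the light chain of the iron store ferritin, fell from 6196 and 4753 to 1848 and 1932 TPM (log2FC -1.52, standard error 0.14, adjusted p = 4.52e-05), and the heavy chain FTH1 from 3554 and 2470.4 to 1269 and 1416 TPM (log2FC -1.14, adjusted p = 0.000810). Both ferritin genes have many processed pseudogenes with which reads may be shared. NQO1, a quinone reductase, fell from 595 and 571 to 237 and 311 TPM. The calls of NQO1 and FTH1 were lost with quantile normalization and without plate a at atmospheric oxygen. The NQO1 call was also lost without plate a at 3% oxygen.

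The redox genes that rose were TXNIP, the inhibitor of thioredoxin, from 29.5 and 22.2 to 82.2 and 71.6 TPM (log2FC 1.57, adjusted p = 0.000137), AKR1C1, an aldo-keto reductase with near-identical paralogs, from 1.88 and 1.54 to 7.24 and 5.02 TPM, and GCLM, a subunit of the enzyme that starts glutathione synthesis, from 45.9 and 40.6 to 90.9 and 91.5 TPM. The GCLM call was lost under median-ratio scaling, quantile normalization and GC adjustment, and without plate b at atmospheric oxygen. MT2A, a metallothionein, measured 2937 and 1687 against 691 and 1209.8 TPM (adjusted p = 0.0659) and PRDX6 819 and 884 against 1748 and 1452 TPM, under 2-fold.

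Genes of sterol and fatty acid synthesis had a median log2FC of 0.72 (0.64 above all genes), with 24 of 32 tested members higher without overlap and none lower, against 40.8% and 26.9% of all genes. Of the 32, 2 were hDEGs, both higher, against 2.78% of all genes. DHCR7, the last enzyme of cholesterol synthesis, rose from 18.2 and 21.7 to 52.0 and 53.2 TPM (log2FC 1.38). Without plate a at atmospheric oxygen no member was called, and without plate b 5 members were. FDPS measured 273 and 312 against 169 and 162 TPM (log2FC 0.82, adjusted p = 0.00420) and FADS2 219 and 240.2 against 129 and 124 TPM (adjusted p = 0.129).

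Among 30 genes of the unfolded protein and amino acid response 2 fell, against 2.52% of all genes, and 4 were called lower with median-ratio scaling. The stress-induced TRIB3 and DDIT3 fell, from 21.4 and 21.0 to 7.52 and 5.45 TPM (log2FC -1.65, adjusted p = 8.61e-05) and from 55.8 and 43.6 to 16.7 and 20.3 TPM, the DDIT3 call being lost without either plate a. The chaperones CALR and HSP90B1 measured 1339 and 1283 against 1218 and 1248 TPM and 1048 and 1031 against 875 and 929 TPM. Of 19 tested arginine and polyamine genes 1 rose and 1 fell, against 2.78% and 2.52% of all genes. ASS1, which makes argininosuccinate, fell from 183 and 127 to 39.0 and 35.6 TPM (log2FC -2.02, adjusted p = 0.000789), and SAT1, which acetylates polyamines for export, rose from 28.4 and 28.6 to 95.2 and 103 TPM. The SAT1 call was lost with any single primary library left out and the ASS1 call without plate a at atmospheric oxygen. The growth factor IGF2 was the only hDEG of 15 genes of its axis, against 5.3% of all genes (89.3 and 93.1 to 37.2 and 39.8 TPM, lost with any single library left out). IGFBP5 and IGFBP3 measured 2488 and 2226 against 2308 and 2286 TPM and 2486 and 2970.4 against 1896 and 1661 TPM. Of 7 small heat shock genes HSPB3 alone was called (2 with median-ratio scaling), against 5.3% of all genes, and HSPB1 measured 291 and 167 against 519.7 and 606 TPM (adjusted p = 0.0137).

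Across 26 lists of genes, 1 of which is not described here, and the 20 genes that the study names for its pre-malignant stages, 670 genes were tested and 94 were hDEGs (against 5.3% of all genes), 49 higher and 45 lower. Of those 20 genes 8 rose and 4 fell. They were chosen by the study on these samples, so their count is not independent evidence of a direction. Besides members given above, THBS1 and THBS2, matricellular thrombospondins, measured 1488 and 1616 against 3106 and 3089 TPM (adjusted p = 0.202) and 132 and 109 against 248 and 232 TPM (log2FC -0.99, adjusted p = 0.00152). SOD2, the mitochondrial superoxide dismutase, measured 59.0 and 53.3 against 51.3 and 52.4 TPM (adjusted p = 0.879), and the kinase STYK1 7.89 and 5.70 against 1.64 and 1.56 TPM (adjusted p = 0.310). These adjusted p values rest on the spread pooled over all 8 groups. For STYK1 that spread includes atmospheric plates of transformed cells at 29.7 and 2.56 TPM.

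**Figure D4:**
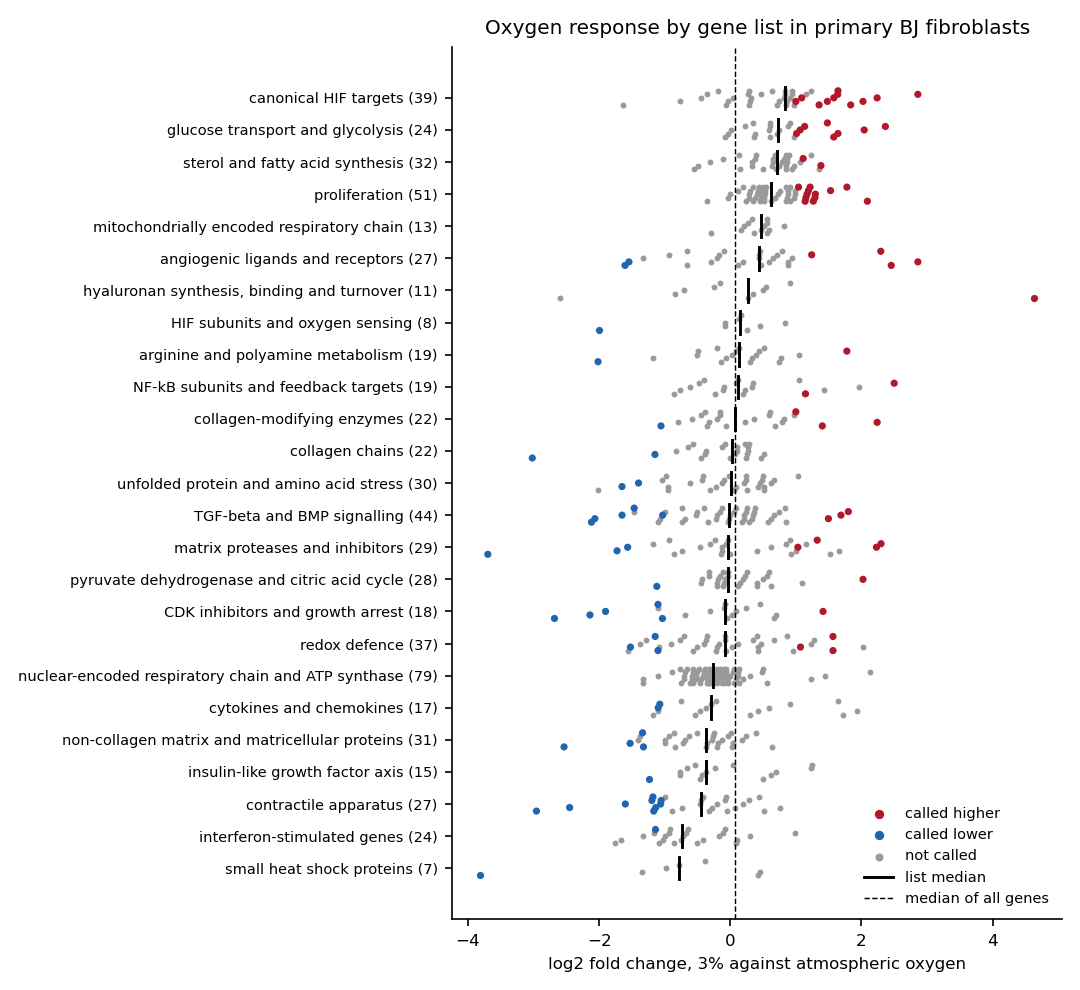
Log2 fold change (x axis) of every tested member of each gene list (y axis, with the number tested in brackets), with hDEGs coloured, the list medians as bars and the median of all 12184 genes (0.08) as a dashed line. Canonical HIF targets and glycolysis have medians of 0.84 and 0.72, and the contractile apparatus and interferon-stimulated genes of -0.45 and -0.74.

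Whether primary cells responded as the next stage of the model did was asked by testing the difference between the oxygen responses. Against immortalized cells this difference was called for 235 of 12632 genes (1.86%), 134 of them with the higher change in primary cells, and against transformed cells for 1302 of 12764 genes (10.2%), 642 with the higher change in primary cells. Immortalized cells had 592 hDEGs among 12049 genes tested there, and transformed cells 916 among 12242. Of the 646 primary hDEGs, 132 were also hDEGs in immortalized cells, which is 20.4% of the primary and 22.3% of the 592 immortalized hDEGs, and 123 of these had the same direction. With transformed cells 100 were shared (15.5% of the primary and 10.9% of the 916 transformed hDEGs), of which 57 had the same and 43 the opposite direction. With metastasizing cells 129 were shared (20% of the primary and 13.7% of the 941 metastasizing hDEGs), of which 117 had the same and 12 the opposite direction. Over all genes tested in primary cells, 5.3% were primary hDEGs. The number of genes tested in metastasizing cells is not given here, so the 20% has no share over all genes beside it.

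The genes with the largest primary responses were picked by that response, so the counts of their differences from other stages are a description. For 6 of the 12 largest rises the difference from immortalized cells was called (HAS2, OPCML, CDCP1, AK4, TFPI2 and TM4SF1) and for 7 the difference from transformed cells. OPCML was under 1 TPM in both oxygen groups of the immortalized cells, and FRMD3 in both of the transformed cells, so these differences restate the primary rise. AK4 rose in all of these stages, by 3.81 in primary, 1.73 in immortalized and 1.65 in transformed cells. CDCP1 rose in primary and transformed cells (1.96 in the latter) and changed by -0.17 in immortalized cells. Of the 12 largest falls the difference from immortalized cells was called for 3 (FHL1, KRTAP1-5 and ALDH1A1) and that from transformed cells for 11, all but MEST. Under 1 TPM in both oxygen groups were ALDH1A1 in immortalized cells and ALDH1A1, HSPB3, TNFSF18 and APOD in transformed cells, where the called difference likewise restates the primary fall.

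FHL1 gave opposite responses: it fell in primary cells, measured 229.9 and 245 TPM at 3% and 187 and 200.3 TPM at atmospheric oxygen in immortalized cells, and rose in transformed cells from 14.7 and 15.5 to 39.7 and 38.2 TPM (log2FC 1.34). The difference from primary cells was -3.33 for immortalized (adjusted p = 2.81e-05) and -4.38 for transformed cells (adjusted p = 1.05e-06). It was called under every alternative fit against immortalized cells. ACTA2 changed by -0.12 in immortalized and -0.67 in transformed cells, and its difference from primary cells was called only against the latter (-2.29).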

How the data were processed

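Polyadenylated RNA of the BJ fibroblast model was sequenced from TruSeq Stranded mRNA libraries, in duplicate per cell stage and oxygen level. The deposited values are TPM per transcript, made by the authors with kallisto 0.42.1 against GRCh37. The annotation release is not given in the sources used here. TPM carries no read depth, so depth is unknown and no count test was run, and no counting interval can be given.

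Transcripts were joined to genes with GENCODE release 44 lifted to GRCh37: 151453 of 180253 transcripts matched (89.3% to 90.1% of TPM in the primary libraries), and the 28800 others were not used. Gene TPM were sums of matched transcripts. Groups came from the sample labels. limma (version 3.58.1, R 4.3.3) with a trended prior was fitted to log2(TPM + 0.5) with 8 group means over 16 libraries, which leaves 8 residual degrees of freedom. Genes whose mean TPM was 1 or more in a compared group were tested, and hDEGs had a Benjamini-Hochberg adjusted p under 0.01 and a log2FC beyond 1. A permutation test of 2 against 2 libraries cannot give a p below 0.333. The steps were tested on simulated data.

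Gene groups, tests and members were chosen with earlier results of these data known. Named genes were the 12 largest rises and falls among hDEGs with non-overlapping libraries and at least 5 TPM, all HIF subunit and study-named genes, up to 4 hDEGs per direction and the 2 most abundant other members of each further list, the 4 largest called stage differences per direction, and the HIF targets that rose. MYH11, DES, TERT and other marker genes belong to the marker lists. XIST and Y-linked genes are not named, and 1 list and a few members of others are not reported here. GC content was taken from each gene's most abundant transcript and removed in 20 bins. Alternatives were other pseudocounts, filters, scalings, fits, thresholds and left-out libraries. Where the text names the fits that lost a gene's call, letter blocks and the fit of the 4 primary libraries alone are left out. Some of these calls, that of PDK2 for example, were lost there as well. GC adjustment, array weights, the crossed letter block and the letter block with GC adjustment were added after seeing the data.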

Additional observations from a re-analysis of the deposited data

Results flagged for a closer look

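For 16 genes the response to 3% oxygen was among the largest differences between stages, as tested by an interaction term in limma with Benjamini-Hochberg adjustment. Against immortalized cells, IL13RA2, a decoy receptor for interleukin-13, rose in primary cells from 1.39 and 1.66 to 7.95 and 7.38 TPM and fell in immortalized cells from 30.8 and 18.2 to 0.955 and 1.11 TPM, a difference of 5.99 on the log2 scale (adjusted p = 2.81e-05). The neutrophil-attracting chemokine CXCL8 measured 11.9 and 4.97 against 2.25 and 1.19 TPM in primary cells and fell in immortalized cells from 3653 and 2324 to 98.0 and 73.3 TPM, a difference of 7.03 (adjusted p = 0.00332). The related CXCL3 and CXCL2 differed by 5.55 (adjusted p = 0.00513) and 5.14 (adjusted p = 0.00332), at no more than 2.40 TPM in any primary library.

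In the other direction, C5orf46 differed by -3.89 (adjusted p = 0.00241), PTPRQ by -3.72 (adjusted p = 0.00154), KRTAP1-5 by -3.74 (adjusted p = 0.00127) and FHL1 by -3.33 (adjusted p = 2.81e-05). The receptor-type phosphatase gene PTPRQ rose in immortalized cells from 1.99 and 2.10 to 18.4 and 13.5 TPM and measured 1.31 and 0.922 against 2.99 and 2.61 TPM in primary cells. The differences of CXCL8, CXCL3, CXCL2 and C5orf46 were lost in 9 or 10 of 23 alternatives, those of PTPRQ and KRTAP1-5 in 2, and those of IL13RA2 and FHL1 in none.

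Against transformed cells, HAS2 differed by 4.91 (adjusted p = 9.85e-06), with 24.8 and 19.5 TPM at 3% and 27.1 and 26.5 TPM at atmospheric oxygen in transformed cells. OPCML differed by 5.64 (adjusted p = 5.31e-05), PODXL by 4.80 (adjusted p = 0.000170) and TXNIP by 5.31 (adjusted p = 1.05e-06). TXNIP rose in primary cells and fell in transformed cells from 28.7 and 25.5 to 1.78 and 1.35 TPM. In the other direction, ASS1, which fell in primary cells, rose in transformed cells from 24.9 and 24.1 to 219 and 213 TPM, a difference of -5.13 (adjusted p = 2.46e-05). INHBE differed by -5.25 (adjusted p = 0.000292), KLHL24 by -4.89 (adjusted p = 4.36e-06) and NUPR1 by -5.05 (adjusted p = 0.000871). INHBE rose in transformed cells from 0.208 and 0.694 to 19.5 and 18 TPM and was near or under 1 TPM in every primary library. All 8 differences from transformed cells were called under each of the 23 alternatives.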

How the results depend on the processing

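None of the 96 named hDEGs or the flagged stage differences turned its direction under any alternative. Direction was not followed for the other hDEGs. Against 646 hDEGs, 164 were called from the 4 primary libraries alone (2 residual degrees of freedom, 144 shared with the 646), and 320 to 464 with 1 primary library left out, the lowest without plate a at atmospheric oxygen. In this setting the lone library was assumed to vary like the other groups. Other pseudocounts, filters, scalings, weights and thresholds gave 529 to 916. Of 96 named hDEGs, 37 were called under all 20 alternatives, and 44 were lost only where a library was left out, a letter was blocked or the 4 primary libraries were fitted alone. GC adjustment cost 9 of them and median-ratio scaling 4. The named hDEGs numbered 45 with the primary libraries alone and 65 to 83 with a library left out, and the 94 hDEGs of the lists 41 and 59 to 79.

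The replicate block gave 359 primary hDEGs (354 shared with the 646) and 335 with GC adjustment. The labels describe parallel plates and state no pairing by letter. Same-letter deviations correlated at -0.168 over 12184 genes, a single value that cannot show whether plates were paired. The crossed block gave 400. The differences from immortalized cells numbered 5 with the replicate block and 33 with GC adjustment in addition, and those from transformed cells 618 and 842.

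The 235 differences from immortalized cells became 565 at an adjusted p of 0.05, 540 with array weights, 377 with only the compared stages, 484 without the metastasizing libraries at 3% oxygen, and 74 to 132 with a library left out. The 1302 differences from transformed cells became 1969 at an adjusted p of 0.05 and 786 to 1154 with a library left out. Their split of 642 higher and 660 lower became 442 and 834 under median-ratio scaling and 547 and 862 under GC adjustment.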

Other observations

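Among genes that do not code for protein, 929 were tested and 30 were called, 21 higher and 9 lower, of which 9 were long non-coding RNAs and the others pseudogenes. The processed pseudogene SRP68P2 was listed at 0 in both plates at 3% oxygen and measured 27.0 and 5.98 TPM at atmospheric oxygen, and the interferon-omega pseudogene IFNWP19 rose from 19.1 and 28.0 to 141 and 149.8 TPM. Reads of processed pseudogenes may come from their parent genes. The antisense RNA GJD3-AS1 fell from 6.47 and 7.4 to 3.70 and 2.25 TPM. A list of 8 well-known long non-coding RNAs was not analysed here.

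The transcript composition of VEGFA, whose total was not called, differed between the oxygen levels: a retained-intron form took 25.2% of the TPM at atmospheric and 12.5% at 3% oxygen, and a coding form of 2834 bases took 20.1% and 29.9%. In MKI67 the longer coding form took 24.3% of the total at atmospheric and 36.5% at 3% oxygen. No test was run on these shares.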
